A study of Homo sapiens with 12 samples.

Results

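The early response of renal tubular cells to tumour necrosis factor α (TNF-α) was examined in HK2, a line of human proximal tubular epithelial cells immortalised with papillomavirus oncogenes. The comparison held 4 of the 12 libraries of the series. These were 2 libraries of untreated cells (Ctrl) and 2 of cells exposed for 3 h to 5 ng/mL of TNF-α without any short-chain fatty acid (TN), chosen by the group named in their labels. The other 8 libraries came from the same line given TNF-α and, for 24 h, either propionate (15 mM) or butyrate (3 mM). Per the study, propionate or butyrate came before TNF-α in groups PRTN and BUTN, and after it in TNPR and TNBU. All 8 libraries entered the gene filter, the scaling and the estimate of the spread between replicates. Ctrl and TN cells grew in the same medium with serum, insulin, transferrin, selenium and hydrocortisone, so the controls carried a glucocorticoid too. The model is a single cell line in culture, and each group is a pair of biological replicates. The sources used here do not say whether a pair came from separate passages. The p-values therefore measure only the spread between replicate libraries, pooled over all 6 groups of the series. Expression is given in CPM, the expected counts that the authors deposited after scaling all libraries to one size with TMM factors.

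TNF-α binds TNF receptors 1 and 2 at the cell surface. Receptor 1 gathers the adaptor TRADD, the kinase RIPK1 and TRAF ubiquitin ligases, which switch on the IκB kinase complex and the MAP kinases. IκB kinase marks IκB proteins for destruction, and the freed NF-κB dimers enter the nucleus and bind κB motifs near their target genes. Among the known targets are chemokines, cytokines, adhesion molecules, survival factors and the inhibitors that later end the signal. In kidney tubules this response is known for drawing leukocytes into the inflamed interstitium.

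After 3 h of TNF-α, 186 of the 24342 genes tested (0.764%) were higher in TN than in Ctrl and 130 (0.534%) were lower, where a call needed more than a 1.5-fold difference and a Benjamini-Hochberg adjusted p below 0.05 by limma-voom. The 130 lower rows stand for 129 genes, because PLCXD1 is listed once for each copy of the pseudoautosomal region. Among the higher genes 67 changed over 2-fold and 13 over 4-fold, with a median log2 fold change of 0.82. Among the lower genes 40 changed over 2-fold and 14 over 4-fold, with a median of -0.76. The Ctrl and TN libraries did not overlap for any called gene, against 46.8% of all genes tested. Scaling by library size alone gave 144 higher and 181 lower genes. The counts also depended on which libraries set the spread. A limma-voom fit of only the 4 Ctrl and TN libraries called 79 higher and 12 lower genes. Without Ctrl replicate 1 there were 118 and 57, without Ctrl replicate 2 there were 133 and 77, without TN replicate 1 there were 137 and 50, and without TN replicate 2 there were 146 and 73. In 16 alternative fits 57 of the higher and 9 of the lower genes were called every time.

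**Figure D1:**
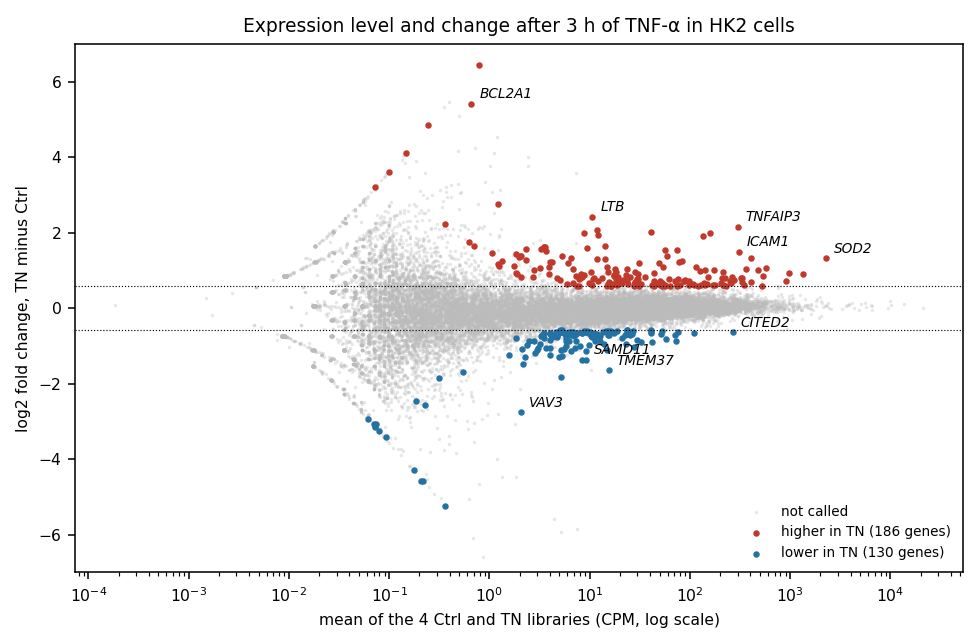
Each point is a gene. The horizontal axis is its mean level over the 4 Ctrl and TN libraries (CPM, log scale) and the vertical axis is the log2 fold change, TN minus Ctrl. Red points are the 186 higher genes, blue points the 130 lower genes, and dotted lines mark a 1.5-fold change. The red points reach from under 1 CPM to SOD2 at over 1000 CPM, whereas only 2 blue points lie above 100 CPM.

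The total expected counts were 30574654 and 29152797 in the Ctrl libraries and 29049322 and 30517192 in the TN libraries, so that 3 counts stood at 0.103 to 0.112 CPM. Mitochondrial genes held 7.19% to 8.46% of the counts. The replicates were close, since the median absolute log2 difference between the libraries of a pair was 0.0822 in Ctrl and 0.103 in TN over genes at 1 CPM or more. Neither pair was as close as sampling noise alone, with a chi-square statistic per gene of 6.61 in Ctrl and 5.96 in TN. The groups given a fatty acid, which also set the spread, had 3.17 (BUTN), 5.08 (PRTN), 15.1 (TNPR) and 18.1 (TNBU).

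The sequences before the start of several of the leading genes show the κB letters themselves. RefSeq promoters (GRCh38.p14, from 250 bases before to 50 bases after the first listed start of a gene) were searched on both strands for the κB consensus. It was found in 1562 of all 27305 promoters (5.72%). Among all tested protein-coding genes a promoter was matched for 12577 of 15934 (78.9%), and 849 of these held the motif (6.75%). Among the higher protein-coding genes a promoter was matched for 124 of 165 (75.2%), and 22 of these held the motif. Among the lower ones a promoter was matched for 85 of 115 (73.9%), and 6 of these held it. Since under 80% of the genes had a promoter, a comparison of these shares was void and none was made. The windows below are from higher genes with a match before the start, and were chosen for their roles as inhibitors, a NF-κB subunit, chemokines, a cytokine, an adhesion molecule, an acute-phase protein and a survival factor. Capitals mark the match, given 5′ to 3′ on the strand of the gene.
TNFAIP3, chr6:137867167-137867238, plus strand: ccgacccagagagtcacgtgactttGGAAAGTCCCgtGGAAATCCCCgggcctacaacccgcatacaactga
NFKBIA, chr14:35404796-35404855, minus strand: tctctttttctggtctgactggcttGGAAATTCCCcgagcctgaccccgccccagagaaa
NFKB1, chr4:102501285-102501344, plus strand: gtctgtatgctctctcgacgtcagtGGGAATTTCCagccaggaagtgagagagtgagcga
CXCL5, chr4:73998733-73998793, minus strand: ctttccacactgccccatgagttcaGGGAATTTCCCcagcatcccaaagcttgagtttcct
CXCL2, chr4:74099238-74099298, minus strand: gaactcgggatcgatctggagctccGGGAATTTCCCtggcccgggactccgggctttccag
CCL20, chr2:227813738-227813797, plus strand: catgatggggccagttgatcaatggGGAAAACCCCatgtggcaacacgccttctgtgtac
IL6, chr7:22727102-22727161, plus strand: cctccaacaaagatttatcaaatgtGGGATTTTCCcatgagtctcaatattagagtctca
VCAM1, chr1:100719655-100719714, plus strand: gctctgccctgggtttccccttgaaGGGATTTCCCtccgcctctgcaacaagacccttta
PTX3, chr3:157436728-157436788, plus strand: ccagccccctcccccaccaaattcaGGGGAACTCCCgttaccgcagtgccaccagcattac
BIRC3, chr11:102317260-102317383, plus strand: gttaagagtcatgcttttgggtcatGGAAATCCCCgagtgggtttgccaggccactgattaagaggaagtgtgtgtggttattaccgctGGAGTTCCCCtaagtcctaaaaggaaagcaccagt
The window of TNFAIP3 held 2 matches 2 bases apart and that of BIRC3 held 2 matches as well. In CXCL5, CXCL2, VCAM1 and PTX3 the match read on both strands over the same or overlapping letters. The promoters listed for ICAM1, SOD2, TNFAIP2 and CXCL8, 4 other higher genes, held no match in these letters. The same held for CITED2, BMP4 and SAMD11, 3 lower genes. Other lower genes did hold it, with 1 match each for BMF, ZNF467 and TCTEX1D4. So did genes that were not called, such as NFKBIZ with 1 match and REL with 2 over both strands. A match or its absence says nothing about the binding of NF-κB there.

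The genes of the pathway itself were taken in the order of the signal, from receptors to NF-κB and its inhibitors. Of 26 tested genes of the TNF receptor complex and the IκB kinase pathway, 2 were higher (7.69%, beside 0.764% of all genes) and none lower, and the median log2 fold change was 0.15, beside -0.01 over all genes. TNFRSF1A, which encodes receptor 1, stood at 109 and 107 CPM in Ctrl and 92 and 101 CPM in TN (adjusted p = 0.457, limma-voom). TNFRSF1B, which encodes receptor 2, stood at 0.446 and 0.896 CPM in Ctrl and 0.894 and 1.26 CPM in TN. Of the 2 that rose, MAP3K8 is a kinase upstream of ERK and stood at 23.5 and 21.7 CPM in Ctrl and 38.1 and 38.6 CPM in TN. TRAF1, an adaptor bound to TRAF2, went from 0.858 and 1.11 to 2.05 and 3.41 CPM, and its call was lost in 4 of 16 alternatives. RIPK2 was higher in both TN libraries, at 109.7 and 115 CPM in Ctrl and 150.0 and 148 CPM in TN, but with a log2 fold change of 0.41 ± 0.06 (SE) it stayed under the 1.5-fold limit.

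Of the 5 Rel proteins, 3 rose (60%, beside 0.764% of all genes) and none fell. NFKB1, the precursor of p50, stood at 73 and 76.2 CPM in Ctrl and 153 and 162 CPM in TN, a log2 fold change of 1.08 ± 0.08 (SE, adjusted p = 1.12e-05, limma-voom). RELB changed by 1.05 ± 0.12, a call lost with only the 4 libraries, and NFKB2, the precursor of p52, by 1.00 ± 0.06. The other two subunits did not pass, as RELA stood at 81.9 and 86 CPM in Ctrl and 89.8 and 94.4 CPM in TN and REL at 17 and 21.4 CPM in Ctrl and 22.7 and 21 CPM in TN.

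Among 15 IκB proteins and other brakes of NF-κB, 4 rose (26.7%, beside 0.764% of all genes) and none fell. TNFAIP3 encodes A20, an enzyme that edits ubiquitin chains and shuts off signalling from receptor 1, and it had the smallest adjusted p of all genes. It lies at chr6:137867214-137883314 on the plus strand (GRCh38). Its level was 109 and 112 CPM in Ctrl and 479.9 and 498 CPM in TN, a log2 fold change of 2.15 ± 0.06 (SE, adjusted p = 1.25e-09, limma-voom), and no library of the groups overlapped. NFKBIA, which encodes IκBα, went from 192 and 187 to 305 and 322 CPM and lost its call without TN replicate 2. TNIP1, a partner of A20, changed by 0.69 ± 0.07 and NFKBIE, which encodes IκBε, by 0.66 ± 0.10 on the log2 scale. The call of NFKBIE was lost with only the 4 libraries. CYLD, a deubiquitinase, was at 28.3 and 30.6 CPM in Ctrl and 46.5 and 41.7 CPM in TN and missed the fold limit with a log2 fold change of 0.58 (adjusted p = 0.000975). The most abundant member by reads, NFKBIZ, showed no change beyond its replicates, with 569 and 626 CPM in Ctrl and 614 and 556 CPM in TN.

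The secreted ligands gave several of the steepest rises. Of 11 tested CXC and CX3C chemokines 4 rose (36.4%, beside 0.764% of all genes) and none fell. Of 7 tested CC chemokines 2 rose (28.6%) and none fell. All 4 CXC members attract neutrophils through CXCR2 and are neighbours on chromosome 4, between bases 73740519 and 74099196. CXCL8, which encodes interleukin 8, stood at 948 and 929 CPM in Ctrl and 1806 and 1712 CPM in TN, a log2 fold change of 0.91 ± 0.06 (SE, adjusted p = 1.12e-05, limma-voom). CXCL5 started far lower, at 3.23 and 3.85 CPM, and reached 14 and 14.3 CPM. CXCL3 changed by 1.19 ± 0.13. CXCL2 changed by 0.79 ± 0.18, and its call was lost in 7 of 16 alternatives (limma-voom adjusted p = 0.0367 in the fit of 12 libraries). Per kilobase of transcript, CXCL8 remained the most abundant of the 4 in both groups, with mean levels of 572 to 1071 CPM per kb from Ctrl to TN, followed by CXCL2 (147 to 254), CXCL3 (28.1 to 64.3) and CXCL5 (1.45 to 5.81). CXCL2 and CXCL3 are close paralogs, and reads that match both were divided between them by RSEM. CXCL1, their neighbour, stood at 0.396 CPM or less in every library, and CXCL10 was at 0 in Ctrl and at 0.108 CPM or less in TN.

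Both CC chemokines that rose changed by similar folds. CCL20, which draws CCR6-positive lymphocytes and dendritic cells, stood at 57.6 and 55.6 CPM in Ctrl and 212 and 216 CPM in TN (1.92 ± 0.13, SE, on the log2 scale). CCL2, the main attractant of monocytes, stood at 4.81 and 5.16 CPM in Ctrl and 18.1 and 20.6 CPM in TN (1.95 ± 0.16). The replicates of each group lay close together in both genes and the groups were far apart.

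Of 22 tested interleukins and colony stimulating factors, 5 rose (22.7%, beside 0.764% of all genes) and none fell. IL6, an inducer of the acute-phase response, stood at 34.2 and 41.4 CPM in Ctrl and 112 and 109 CPM in TN, with a log2 fold change of 1.55 ± 0.09 (SE, adjusted p = 4.26e-06, limma-voom). CSF2 (GM-CSF) went from 48.8 and 51.1 to 119 and 118 CPM. CSF1 (M-CSF), a growth factor of macrophages, went from 152 and 138 to 271 and 298 CPM. The other 2 were cytokines of the IL-6 family, IL11 at 0.71 ± 0.10 and LIF at 0.61 ± 0.09. The call of LIF was lost in 2 of 16 alternatives. IL32 was higher in both TN libraries (176 and 181 CPM in Ctrl and 237 and 257 CPM in TN, adjusted p = 0.00117, limma-voom) without reaching 1.5-fold. IL1A and IL1B were at 0.41 CPM or less throughout.

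Of 14 ligands of the TNF superfamily 1 rose (7.14%, beside 0.764% of all genes). LTB, which forms lymphotoxin heterotrimers with LTA at the cell membrane, stood at 3.09 and 3.69 CPM in Ctrl and 17.5 and 18.3 CPM in TN, a log2 fold change of 2.41 ± 0.15 (SE, adjusted p = 4.26e-06, limma-voom). TNF itself stood at 3.02 and 3.73 CPM in Ctrl and 11.5 and 10.8 CPM in TN, with no overlap between the groups, but it did not pass in the fit of 12 libraries (adjusted p = 0.136). The same held for TNFSF10, which encodes the death ligand TRAIL, at 422 and 383 CPM in Ctrl and 657 and 652 CPM in TN (adjusted p = 0.0811). The fit of only the 4 libraries called 3 ligands of this family. Among 20 other receptors of the superfamily 2 rose (10%). TNFRSF9, the costimulatory receptor 4-1BB, stood at 45.9 and 47.2 CPM in Ctrl and 107 and 111 CPM in TN and CD40 at 108 and 105 CPM in Ctrl and 167 and 175 CPM in TN.

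**Figure D2:**
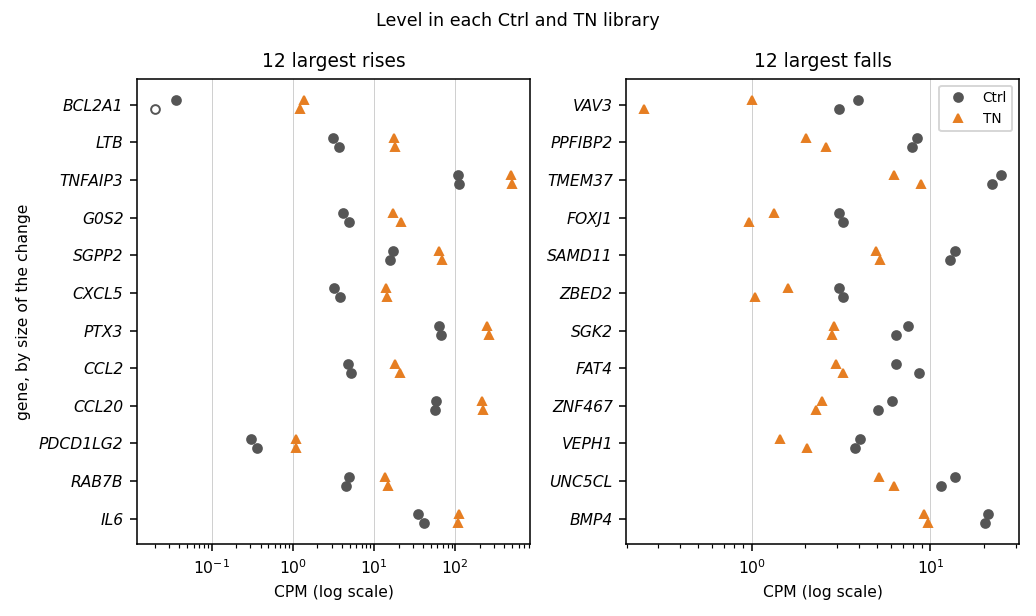
Each row is one of the 12 genes with the largest rise (left) or fall (right), ordered by size of the log2 fold change. Grey circles are the 2 Ctrl libraries and orange triangles the 2 TN libraries, in CPM on a log axis, and an open circle at the left edge marks a value of 0. The TN symbols lie to the right of both Ctrl symbols in every row on the left and to their left in every row on the right, and the TN pair of VAV3 is the widest.

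Receptors for other cytokines followed. Of 27 tested, 4 were higher (14.8%, beside 0.764% of all genes) and none lower, with a median log2 fold change of 0.30. Among them were 3 chains of interferon receptors, IFNGR1 (112 and 106 CPM in Ctrl and 192 and 194 CPM in TN), IFNAR2 (log2 fold change 0.72 ± 0.07) and IFNGR2 (0.62 ± 0.08). The fourth was IL7R, at 44 and 44.9 CPM in Ctrl and 70.9 and 63.6 CPM in TN, whose call was lost in 4 of 16 alternatives. Both chains of the oncostatin M receptor were higher in the TN libraries but under 1.5-fold, OSMR by 0.50 ± 0.06 and IL6ST by 0.41 ± 0.08. Of 16 genes of interleukin 1 and Toll-like receptor signalling only the kinase IRAK2 was called (6.25%). IRAK2 stood at 31.6 and 33.2 CPM in Ctrl and 83.4 and 86.8 CPM in TN (log2 fold change 1.39 ± 0.12, SE).

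Of 14 tested leukocyte adhesion molecules 4 rose (28.6%, beside 0.764% of all genes) and none fell. The fit of only the 4 libraries called 4 as well. ICAM1, the ligand of leukocyte β2 integrins, stood at 159 and 169 CPM in Ctrl and 437 and 478 CPM in TN, a log2 fold change of 1.48 ± 0.06 (SE, adjusted p = 2.62e-07, limma-voom). VCAM1, the ligand of integrin α4β1, was far less abundant, at 3.12 and 2.76 CPM in Ctrl and 7.89 and 7.47 CPM in TN, and changed by 1.38 ± 0.18. CD44, a hyaluronan receptor, went from 246 and 261 to 412 and 414 CPM, and CD47 changed by 0.62 ± 0.07. ALCAM and F11R, 2 junctional members of the list, did not pass (log2 fold changes 0.13 and -0.04). ICOSLG and PDCD1LG2, both ligands of coreceptors on T cells, also rose. ICOSLG, which was picked after its values were seen, stood at 25.9 and 31.5 CPM in Ctrl and 78.4 and 87.6 CPM in TN. PDCD1LG2 stood at 0.309 and 0.359 CPM in Ctrl and 1.08 and 1.08 CPM in TN, and its call was lost in 7 of 16 alternatives.

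Of 13 apoptosis brakes 3 rose (23.1%, beside 0.764% of all genes) and none fell. BIRC3, an inhibitor of apoptosis protein that ubiquitinates RIPK1, stood at 240.3 and 236 CPM in Ctrl and 504 and 469.5 CPM in TN (1.03 ± 0.09, SE). Its neighbour BIRC2 changed by 0.62 ± 0.09, and its call was lost in 4 of 16 alternatives. BCL2A1, an antiapoptotic BCL2 protein, was all but absent before treatment, with expected counts of 1.1 and 0 in Ctrl and 37.1 and 34.3 in TN. This gave a ratio of 70.2 with an exact 95% interval of 12.7 to 2351.6 for counting error only, and the call was lost in 5 of 15 alternatives that tested it. The most abundant brake by reads, MCL1, was at 405 and 424 CPM in Ctrl and 535 and 448 CPM in TN and did not pass (adjusted p = 0.507, limma-voom). Of 17 apoptosis promoters 1 rose (5.88%) and 1 fell (5.88%, beside 0.534% of all genes). BID, which links death receptors to mitochondria, changed by 0.59 ± 0.08 and lost its call in 4 of 16 alternatives, and BMF, a BH3-only protein whose call was lost with only the 4 libraries, went from 78.7 and 67.9 to 40.9 and 42.8 CPM (-0.81 ± 0.11).

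**Figure D3:**
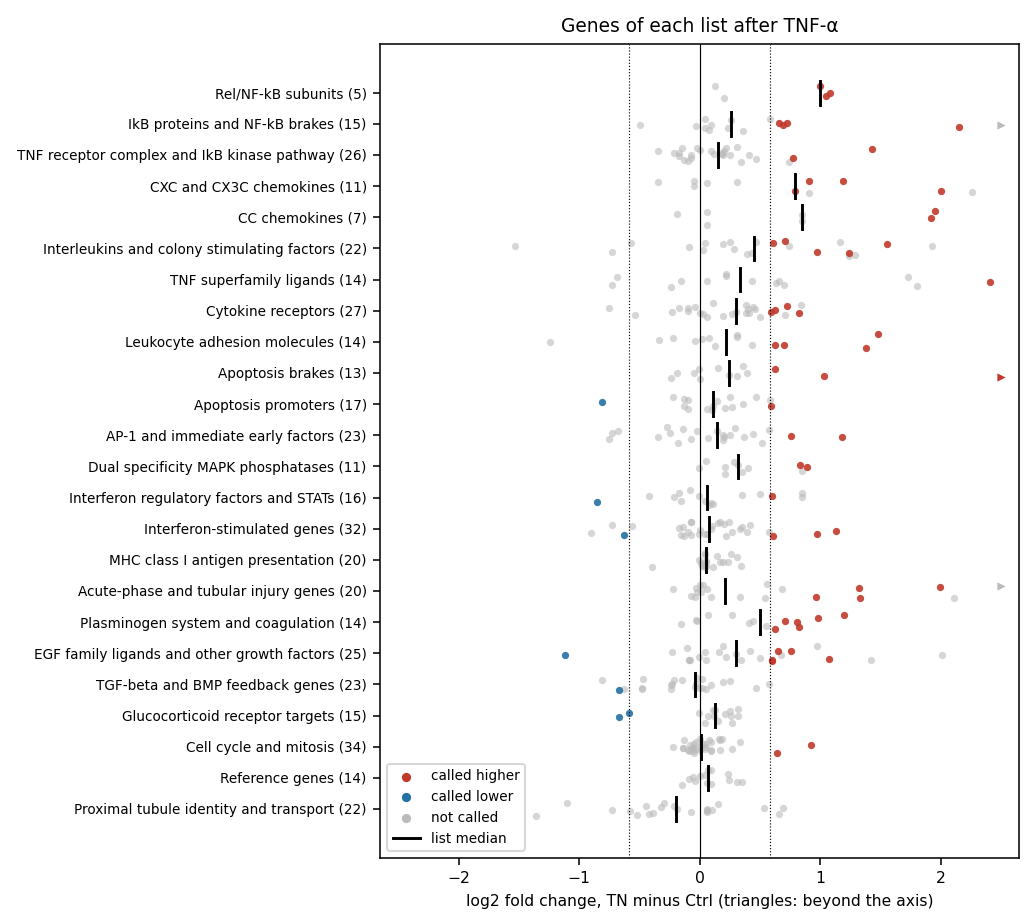
Each row is a gene list with the number of its genes tested, and each point is a gene placed by its log2 fold change, TN minus Ctrl. Red points were called higher, blue points lower and grey points neither. Black bars are list medians over all tested members, dotted lines mark 1.5-fold, and triangles lie beyond the axis. Red points stand out in the upper rows of NF-κB subunits, brakes and ligands and in the plasminogen row, while the cell cycle and reference rows sit around 0.

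Of 23 AP-1 and immediate early factors 2 rose (8.7%, beside 0.764% of all genes), FOSL1 at 42.2 and 49.2 CPM in Ctrl and 84.7 and 70.4 CPM in TN and NR4A3, a nuclear receptor, at 0.927 and 0.574 CPM in Ctrl and 1.6 and 1.76 CPM in TN. Their calls were lost in 4 and 7 of 16 alternatives. FOS stood at 68.2 and 68.3 CPM in Ctrl and 46.2 and 35.9 CPM in TN, JUN at 268 and 304 CPM in Ctrl and 309.7 and 289 CPM in TN and EGR1 at 342 and 381 CPM in Ctrl and 479 and 354 CPM in TN, none of which passed. No member was called among 14 KLF factors or 8 SOCS proteins. Lists this short are unlikely to hold a call at the overall shares of 0.764% higher and 0.534% lower, so this says little about them. SOCS3 stood at 41.5 and 39.8 CPM in Ctrl and 31.5 and 33.5 CPM in TN. Of 11 dual specificity phosphatases, which switch off MAP kinases, 2 rose (18.2%). DUSP10, which acts on p38 and JNK, changed by 0.89 ± 0.09. DUSP5 differed between its TN replicates, at 16.9 and 19.1 CPM in Ctrl and 41.7 and 24.5 CPM in TN, and its call was lost in 8 of 16 alternatives.

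Of 32 interferon-stimulated genes 3 rose (9.38%, beside 0.764% of all genes) and 1 fell (3.12%, beside 0.534%), with a median log2 fold change of 0.08. GBP1, a guanylate-binding protein, went from 19.6 and 18.9 to 39.2 and 36.2 CPM, and PLSCR1 changed by 0.61 ± 0.07, a call lost in 3 of 16 alternatives. IFITM2 and IFITM1 moved in opposite directions, at 1.13 ± 0.26 and -0.63 ± 0.14, but they are close paralogs that may share reads, and their calls were lost in 7 and 9 of 16 alternatives. Among 16 interferon regulatory factors and STATs 1 rose and 1 fell, each 6.25% of the list. IRF2 rose (0.60 ± 0.09, lost in 3 of 16 alternatives) and STAT4 fell, from 41.1 and 35.8 to 21.2 and 21.2 CPM (-0.85 ± 0.09). IRF1 was at 34.3 and 35.1 CPM in Ctrl and 49 and 49.3 CPM in TN, a log2 fold change of 0.50 ± 0.10 that missed the fold limit. None of 20 genes of MHC class I presentation was called, which says little for a list this short at the overall shares of 0.764% higher and 0.534% lower. The peptide transporter TAP1 stood at 21.5 and 20.7 CPM in Ctrl and 25.9 and 27.4 CPM in TN.

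Acute-phase genes included the largest gain in reads. Of 20 acute-phase and tubular injury genes 4 rose (20%, beside 0.764% of all genes) and none fell. SOD2, the mitochondrial superoxide dismutase, stood at 1313 and 1327 CPM in Ctrl and 3292 and 3282 CPM in TN, a log2 fold change of 1.32 ± 0.06 (SE, adjusted p = 6.46e-07, limma-voom). PTX3, a soluble pattern recognition protein, stood at 62.2 and 65.6 CPM in Ctrl and 248 and 259 CPM in TN. TNFAIP2 went from 237 and 229 to 554 and 621 CPM, and its call was lost in 4 of 16 alternatives. GCH1, which starts tetrahydrobiopterin synthesis, changed by 0.96 ± 0.11, and its call was lost with only the 4 libraries. The injury marker LCN2 (NGAL) stood at 129.6 and 124 CPM in Ctrl and 153 and 166 CPM in TN, with an adjusted p of 0.0121 by limma-voom but a log2 fold change of only 0.33 ± 0.06. HAVCR1 (KIM-1) stood at 197 and 205 CPM in Ctrl and 194 and 202 CPM in TN. The complement gene CFB was at 337 and 311 CPM in Ctrl and 463 and 493 CPM in TN (limma-voom adjusted p = 0.063 in the fit of 12 libraries).

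Of 14 genes of the plasminogen system and coagulation 6 rose (42.9%, beside 0.764% of all genes) and none fell. They sat on both sides of the system. Activators rose, with PLAU (urokinase) at 187 and 194 CPM in Ctrl and 322 and 352 CPM in TN and PLAT at 8.24 and 8.28 CPM in Ctrl and 11.6 and 13.9 CPM in TN, and so did the protease inhibitor SERPINE2, at 3.47 and 3.33 CPM in Ctrl and 6.11 and 5.89 CPM in TN. F3 (tissue factor), which starts coagulation, changed by 0.98 ± 0.13, and THBD (thrombomodulin), which restrains thrombin, by 1.20 ± 0.14. The calls of PLAT and SERPINE2 were lost in 6 and 5 of 16 alternatives, and the fit of only the 4 libraries called 3 of the 6. PLAUR, the urokinase receptor, stood at 32.3 and 33 CPM in Ctrl and 47.7 and 48 CPM in TN, a log2 fold change of 0.55.

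Of 25 tested genes listed as growth factors 5 rose (20%, beside 0.764% of all genes) and 1 fell (4%, beside 0.534%). INHBA, the subunit of activin A, stood at 347 and 404 CPM in Ctrl and 798 and 769 CPM in TN (1.07 ± 0.08, SE). EDN1 (endothelin 1), FGF12, NRG1 and PTHLH changed by 0.76, 0.65, 0.60 and 0.60 on the log2 scale. FGF12 was listed by its family name, and whether its product acts as a secreted factor was not examined. INHBA alone of the 5 was called with only the 4 libraries, and NRG1 and PTHLH lost their calls in 3 and 4 of 16 alternatives, both of them without Ctrl replicate 1 and PTHLH also without TN replicate 1. BMP4 fell, from 20.9 and 20.2 to 9.16 and 9.69 CPM (-1.12 ± 0.10, adjusted p = 6.25e-05, limma-voom), and was called lower in all 16 alternatives. ID1, a transcriptional inhibitor induced by BMP signalling, fell too, with 52.3 and 48.8 CPM in Ctrl and 29.1 and 34.5 CPM in TN, though its call was lost in 4 alternatives. It was the only called member of 23 TGF-β and BMP feedback genes (4.35%), whose median was -0.04. Its relatives ID2 and ID3 stood at 3.37 and 2.94 CPM in Ctrl and 1.82 and 1.76 CPM in TN and 33.4 and 32.5 CPM in Ctrl and 22.2 and 25.5 CPM in TN without passing both limits. Of 34 cell cycle genes 2 rose (5.88%), the inhibitor CDKN2B from 30.1 and 30.6 to 58.4 and 56.4 CPM and the cyclin CCND1 from 40.7 and 42 to 64.1 and 64.7 CPM. The proliferation marker MKI67 stood at 482 and 599 CPM in Ctrl and 528 and 505 CPM in TN.

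Most of the falls, like most of the rises, belonged to genes outside the lists. CITED2, a transcriptional coregulator that competes for CBP and p300, was the most abundant of the lower genes by reads, with 329 and 324 CPM in Ctrl and 213 and 206 CPM in TN, a log2 fold change of -0.64 ± 0.05 (SE, adjusted p = 4.52e-05, limma-voom). It lies at chr6:139371807-139374648 on the minus strand of GRCh38. Since these are bulk libraries, less RNA per cell and fewer cells that express a gene cannot be told apart. The largest fall among genes at 1 CPM or more belonged to VAV3, an exchange factor of small GTPases, at 3.95 and 3.08 CPM in Ctrl and 1.01 and 0.251 CPM in TN, where the TN replicates lay far apart but both below Ctrl. PPFIBP2, a liprin, went from 8.45 and 7.85 to 2.01 and 2.62 CPM and TMEM37 from 24.9 and 22 to 6.26 and 8.83 CPM. FOXJ1, the master factor of motile cilia, stood at 3.09 and 3.26 CPM in Ctrl and 1.34 and 0.969 CPM in TN. Its call was lost in 2 of 16 alternatives, among them the fit of only the 4 libraries. SAMD11 stood at 13.7 and 12.8 CPM in Ctrl and 4.97 and 5.2 CPM in TN and kept its call in all 16 alternatives.

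The remaining large falls were low in expression. SGK2, a kinase related to SGK1, stood at 7.45 and 6.45 CPM in Ctrl and 2.9 and 2.8 CPM in TN and the atypical cadherin FAT4 at 6.42 and 8.68 CPM in Ctrl and 2.98 and 3.23 CPM in TN. ZBED2, ZNF467, VEPH1 and UNC5CL had log2 fold changes of -1.28, -1.23, -1.18 and -1.14. ZBED2 lost its call in 6 of 16 alternatives, FAT4 in 4, and VAV3 and VEPH1 in 3 each. SGK2, ZNF467 and UNC5CL lost theirs in 1, the fit of only the 4 libraries, as did PPFIBP2, TMEM37, PRODH and STAT4. By smallest adjusted p the falls were led by TPRN, then CITED2, then BMP4 and PRODH, and then STAT4. TPRN stood at 30.4 and 30.5 CPM in Ctrl and 15.5 and 16.2 CPM in TN and PRODH, a mitochondrial proline dehydrogenase, at 36 and 39 CPM in Ctrl and 17 and 19.6 CPM in TN. The 9 falls called in every alternative were TNS2, CITED2, FAM84B, SIM1, TPRN, PPL, EPHA4, BMP4 and SAMD11. Of these, the ephrin receptor EPHA4 went from 9.93 and 9.57 to 4.67 and 4.65 CPM and the desmosomal protein periplakin (PPL) from 10.9 and 10.4 to 5.21 and 5.42 CPM.

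Among 15 glucocorticoid receptor targets 2 fell (13.3%, beside 0.534% of all genes) and none rose. TSC22D3 (GILZ) stood at 51.7 and 45.7 CPM in Ctrl and 31.9 and 32.8 CPM in TN and CRISPLD2 at 9.89 and 10.5 CPM in Ctrl and 6.2 and 6.61 CPM in TN. Their calls were lost in 12 and 6 of 16 alternatives and in each fit that left out 1 library. The median of the list was 0.13, and FKBP5, another target, stood at 48.3 and 53.2 CPM in Ctrl and 63.2 and 59.6 CPM in TN. Of 505 tested ZNF zinc finger genes 4 fell and none rose. The share of falls, 0.792%, was near the 0.534% over all genes. With only the 4 libraries none of these zinc finger genes was called. Of 298 SLC transporters 7 rose (2.35%, beside 0.764% of all genes) and 4 fell (1.34%, beside 0.534%). The fit of only the 4 libraries called 4 higher and 0 lower. The zinc importer SLC39A14 went from 231 and 236 to 398 and 414 CPM and the ergothioneine transporter SLC22A4 from 10.4 and 10.1 to 19.5 and 20.3 CPM. SLC7A10 and SLC23A1 were the steepest falls among transporters, at -1.86 and -0.79, and their calls were lost in 7 and 11 of 16 alternatives.

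None was called among 22 sterol and glycolysis genes, 13 glutathione and NRF2 genes, 44 clustered histone genes, 37 mitochondrially encoded genes or 14 reference genes. With 0.764% of all genes higher and 0.534% lower, lists of these sizes would hold under 1 call at the overall share, so a count of 0 says little about them. GAPDH stood at 6651 and 6714 CPM in Ctrl and 6288 and 6694 CPM in TN and ACTB at 5578 and 5797 CPM in Ctrl and 5609 and 6078 CPM in TN. Of 83 cytosolic ribosomal protein genes 1 was called higher, near the overall share (1.2% beside 0.764%). It was RPL22L1, a paralog of RPL22 (0.89 ± 0.15). Its call was lost in 2 of 16 alternatives, among them the fit of only the 4 libraries. One gene each was called higher among 16 YAP and TEAD targets (F3), 18 Notch genes (MAML2), 20 p53 targets (PLK3), 19 genes of the integrated stress response (SLC7A5) and 18 matrix metalloproteinases and inhibitors (ADAMTS9). A single call was 5% to 6.25% of these short lists, beside 0.764% of all genes. F3 kept its call in all 16 alternatives, whereas MAML2 and PLK3 each lost it in 4, SLC7A5 in 7 and ADAMTS9 in 6, and PLK3, SLC7A5 and ADAMTS9 lost it in every fit that left out 1 library. MMP7 was at 611 and 588 CPM in Ctrl and 885 and 939 CPM in TN. Its standard error in the fit of 12 libraries was 0.28 and its adjusted p was 0.306 by limma-voom. That fit took its spread from the groups given a fatty acid too.

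Rises and falls differed in expression level. Grouped by the mean of the 4 libraries, 44 of 2289 genes over 100 CPM were higher (1.92%) and 2 were lower (0.0874%). At 10 to 100 CPM 87 of 7722 genes were higher (1.13%) and 44 lower (0.57%). The order turned at 1 to 10 CPM, with 46 of 4222 genes higher (1.09%) and 69 lower (1.63%). Grouping by the Ctrl mean instead gave 53 higher and 56 lower genes in that class. Under 1 CPM 9 of 10109 genes were higher and 15 lower. The median mean level was 23.9 CPM for higher and 6.68 CPM for lower genes. Precision followed level as well, since the median standard error of the log2 fold change was 0.801 under 1 CPM, 0.203 at 1 to 10 CPM, 0.088 at 10 to 100 CPM and 0.068 above, so a change near 1.5-fold could be called in the upper classes and not in the lowest.

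**Figure D4:**
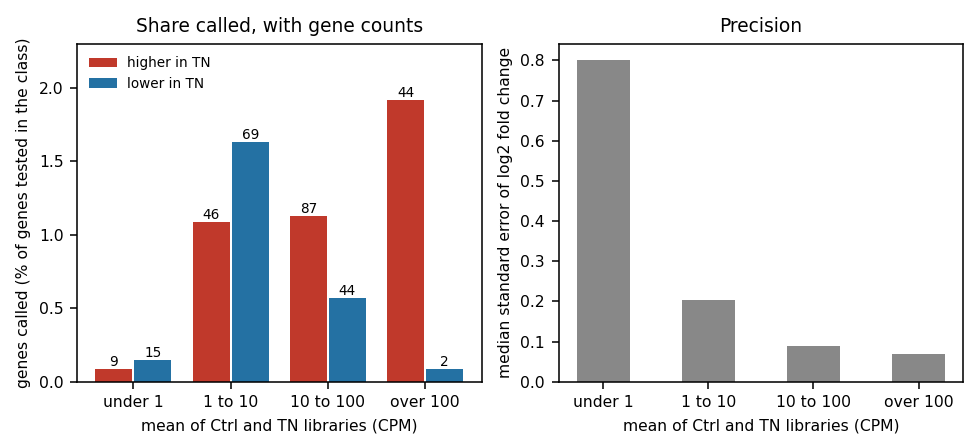
Left, the share of the genes tested in each class of mean level (CPM) that was called higher (red) or lower (blue), with the number of genes above each bar. Right, the median standard error of the log2 fold change in each class. Lower genes outnumber higher genes at 1 to 10 CPM, 69 to 46, and 2 of them remain over 100 CPM, where the standard error is smallest.

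The calls under 1 CPM rested on few counts. All 24 of them exceeded 2-fold, and edgeR called 6 of the 9 higher and 9 of the 15 lower ones, DESeq2 called 0 and 1, and the fit of only the 4 libraries called 0 and 0. In 6 higher genes the Ctrl libraries together held at most 3 counts, and in 13 lower genes the TN libraries did. TCTEX1D4, for example, had expected counts of 7.4 and 3.3 in Ctrl and 0 in both TN libraries, which is at least 3.42-fold lower against a floor of 3 counts over the group. The pseudogene SLC25A1P5 had 14.5 and 26.2 counts in Ctrl and 0 in TN, at least 13.0-fold lower, but it shares sequence with its parent gene, RSEM divides reads between such copies, and the part of this in the result was not tested.

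Measured in reads rather than folds, few genes carried most of the rise. The 186 higher genes together held 12940 and 13273 CPM in Ctrl and 24737 and 24941 CPM in TN, and 10 genes made up 50.2% of the gain of 11732 CPM. SOD2 alone made up 16.8% of it and CXCL8 6.99%. The third was SDC4 (syndecan 4, 5.15%), and among the others were INHBA, TNFAIP3, TNFAIP2, AMIGO2, CLDN1 (claudin 1) and ICAM1. SDC4 went from 665 and 676 to 1214 and 1336 CPM and CLDN1 from 380.2 and 385 to 681 and 696 CPM. These shares count reads and so weigh long transcripts more. The 130 lower genes went from 2470 and 2377 CPM to 1430 and 1470 CPM, a loss of 974 CPM, of which CITED2 made up 12%.

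**Figure D5:**
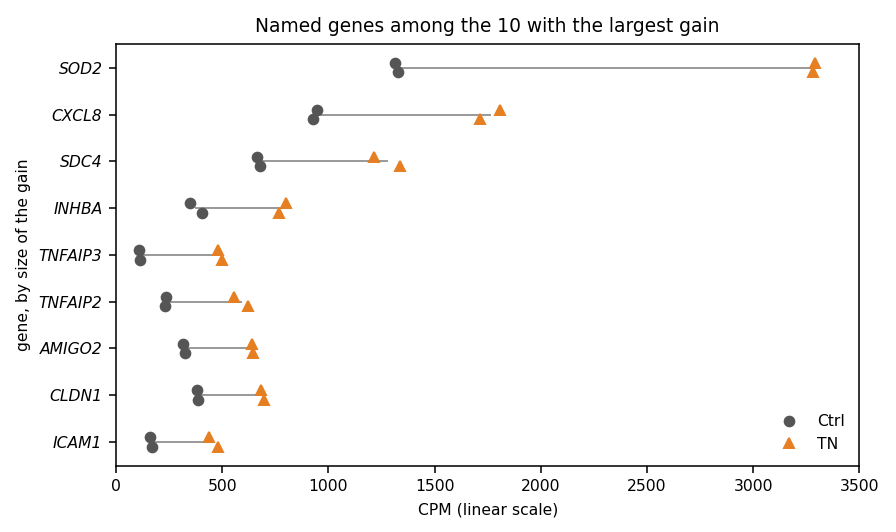
Named genes among the 10 with the largest gain in CPM, in order from the top, on a linear axis. Grey circles are the Ctrl libraries, orange triangles the TN libraries, and each line joins the group means. SOD2 gains 1967 CPM and the next gene, CXCL8, 820.3 CPM, and the replicates of each group lie close together beside the distance between the groups.

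Some called genes were neighbours in the genome. Besides the CXC chemokines, TNFAIP3 stood in a group of 5 higher genes on chromosome 6 from base 137197483 to 137883314, where other tested genes were not called. IFNGR1 was at one end, with 3 higher genes without an established name between it and TNFAIP3. Of these, RP11-356I2.4 lies on the minus strand at chr6:137823673-137868233 and overlaps the start of TNFAIP3. It stood at 1.1 and 1.22 CPM in Ctrl and 3.23 and 3.65 CPM in TN, but the strand setting of RSEM is not given in the sources used here, so its reads and those of TNFAIP3 cannot be told apart. RP11-95M15.2 and RP11-95M15.3 stood at 0.455 and 0.183 CPM in Ctrl and 2.2 and 2.01 CPM in TN and at 1.92 and 1.54 CPM in Ctrl and 5.66 and 5.03 CPM in TN. These neighbours were picked after their values were seen. Lower genes lay near one another too, with FOXJ1 in a group of 4 on chromosome 17 and TPRN in a group of 3 on chromosome 9. Those stretches held 32 and 59 tested genes.

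The cell type labels were checked against markers. Of 26 genes of proximal tubule identity and transport, 11 were at 1 CPM or more, and the summed level of the 22 tested was 1143 and 1123.5 CPM in Ctrl and 1029 and 1070.5 CPM in TN. PAX8 and GGT1 were well expressed, whereas LRP2 (megalin) and the organic anion transporters SLC22A6 and SLC22A8 had 0 counts in all 4 libraries. No member was called, and the median of the list was -0.20. CDH6, a cadherin of proximal tubules, stood at 1092 and 1122 CPM in Ctrl and 744 and 756 CPM in TN, and its log2 fold change of -0.56 ± 0.13 was under the fold limit. No marker of macrophages, lymphocytes, endothelial cells or fibroblasts was called. These lists and that of the proximal tubule are short, and a call in them was unlikely at the overall shares of 0.764% higher and 0.534% lower. The summed level of macrophage genes was 31.6 and 36.5 CPM in Ctrl and 31.0 and 34.4 CPM in TN, nearly all of it CD68, while CD163, MARCO and C1QA were at 0. Lymphocyte genes summed to at most 0.481 CPM and endothelial genes to at most 0.79 CPM in every library. Fibroblast genes summed to 60.5 and 59.5 CPM in Ctrl and to 53.5 and 55.4 CPM in TN. Most of this was COL1A1, at 48.5 and 48.1 CPM in Ctrl and 39.6 and 43.2 CPM in TN, while COL1A2 was at 0.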

How the data were processed

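Polyadenylated RNA of HK2 cells was sequenced from stranded libraries. Per the labels and the methods of the study, the authors checked reads with FastQC 0.11.5, aligned them to GRCh38 with STAR 2.6.1a and counted them on GENCODE release 26 with RSEM, whose version and strand setting are not given in the sources used here. Each deposited file lists expected counts, estimated counts that need not be whole and were neither scaled nor filtered, and replicates were not pooled. Treatments follow the label of each library, since the general treatment text of the labels names other compounds.

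Of 58278 genes, 24342 with a geometric mean of at least 1 (count plus 1, minus 1, over all 12 libraries) were kept. TMM factors (edgeR 4.0.16), voom weights, a mean for each of 6 groups and moderated statistics with a prior df of 6.12 (limma 3.58.1, R 4.3.3) gave the contrast of TN with Ctrl. A call needed a fold over 1.5 and a Benjamini-Hochberg adjusted p under 0.05. A range after ± is the standard error of the log2 fold change. Count fits by edgeR and DESeq2 1.42.0 used rounded counts. The script was tested on simulated data. Intervals and floors of 3 counts cover counting error only.

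The members, gene lists and tests were chosen with earlier results of these data known. The text names the 12 called genes of each direction with the largest fold, provided that they reached 1 CPM in either group, did not overlap and had an established name, the 5 smallest adjusted p in each direction, up to 6 called and 3 uncalled genes of each list, and the leading gene of each level class. Others were picked after their values were seen. Positions are from GENCODE release 44, which matched 24026 of the kept genes, and SOD2 was not matched. Promoters are from RefSeq. Values of some genes that the rule selects are not reported here.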

Additional observations from a re-analysis of the deposited data

How the results depend on the processing

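No called gene named in the text changed its direction in any of the 16 alternative fits that tested it, where 3 low genes (BCL2A1, TCTEX1D4 and SLC25A1P5) were tested in 14 or 15. Of the 101 called genes that the naming rule selected, 41 were called in all of them, 22 lost the call in 1, 20 in 2 to 4 and 18 in 5 or more. Of 32 other called genes, named after their values were seen, 12 were called in all of them, 15 lost the call in 1 to 4 and 5 in 5 or more. The counts of higher and lower genes stayed within 1.5 times of 186 and 130 with edgeR (197 and 154), DESeq2 (193 and 124), relative log expression scaling (197 and 122), the plain library size (144 and 181), 3 other filters and a fit of 8 libraries that left out TNPR and TNBU (248 and 195). They moved further with only the 4 Ctrl and TN libraries (79 and 12), where fewer libraries set the spread, whereas edgeR and DESeq2 on the same 4 libraries, 2 fits chosen after seeing the data, called 207 and 119, and 186 and 88. Fits that left out 1 library ranged from 118 to 146 higher and from 50 to 77 lower genes. A fold over 2 gave 67 and 40, and an unadjusted p gave 527 and 719. Replicate numbers did not serve as pairs, because same-numbered libraries deviated together in only 1 of 15 pairs of groups (r over 0.1, range -0.0791 to 0.24) and r was 0.0046 for Ctrl with TN. With the replicate block 185 higher and 135 lower genes were called. Depth limited the 10109 genes under 1 CPM, where the median standard error was 0.801.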

Other observations

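Genes that passed the test but stood in none of the lists were grouped after their values were seen, and the groups carry no test of their own. Each gene named here passed at an adjusted p under 0.05 (limma-voom), the weakest being WNT10B at 0.0481. In 16 alternatives, WNT10B lost its call in 9, NR3C2 and TFAP2A in 6 each and the other genes named here in 3 or fewer. Several transcription factors were among the higher genes. ETS1 stood at 235 and 253 CPM in Ctrl and 433 and 411 CPM in TN, and ELK3, another ETS factor, went from 55.4 and 57.5 to 97.8 and 93.4 CPM. The octamer factor POU2F2 changed by 0.85 ± 0.10 and the zinc finger repressor ZEB2 by 0.66 ± 0.08 (SE) on the log2 scale, while NR3C2, the mineralocorticoid receptor, went from 12.6 and 14.1 to 20.5 and 21 CPM. Among genes of contacts and matrix, the laminin chain LAMB3 and the adhesion protein AMIGO2 were higher, with log2 fold changes of 1.00 and 1.01. The ephrin EFNA1 stood at 37.1 and 32 CPM in Ctrl and 69.3 and 78.1 CPM in TN. MIR155HG, the host transcript of a microRNA, was low, at 2.09 and 2.04 CPM in Ctrl and 4.1 and 4.56 CPM in TN.

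Among the lower genes were several developmental regulators. SIM1, a transcription factor, went from 86.5 and 90 to 55.4 and 51.7 CPM, IRX3 from 14.1 and 15.5 to 8.59 and 9.7 CPM and TFAP2A from 34.1 and 31.3 to 21.5 and 21.7 CPM. THRA, a thyroid hormone receptor, changed by -0.62 ± 0.10. Transcripts of surface and secreted proteins fell as well. Protocadherin 7 (PCDH7) stood at 92.4 and 93 CPM in Ctrl and 46.2 and 56.3 CPM in TN, the TGF-β-binding protein VASN changed by -0.90 ± 0.12, and the guidance proteins NTN4 and FLRT3 by -0.94 ± 0.11 and -0.87 ± 0.14. The WNT receptor FZD2 went from 31.8 and 32.9 to 18.1 and 22.1 CPM, while the ligands WNT7B and WNT10B were higher (0.82 and 0.83).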
